A study of Mus musculus with 9 samples.

Results

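The genes described here are 10 components of Toll-like receptor signalling around the ubiquitin ligase TRAF6, taken by symbol from a table of 22173 genes. They are the receptors Tlr2 and Tlr4, the co-receptor Cd14, the adaptor Myd88, the kinases Irak4, Irak1 and Irak2, the ligase Traf6 itself, and Tab2 and Map3k7 of the TAK1 kinase complex. All 10 symbols were found. Toll-like receptors recognise microbial molecules at the cell surface or in endosomes and recruit MYD88, which assembles the IRAK kinases. These engage TRAF6, which builds ubiquitin chains that are read by TAB2, and the TAK1 kinase (encoded by Map3k7) then activates the NF-kappaB and MAP kinase routes. In the liver this pathway is known mainly from macrophages that meet bacterial products from the gut, and biliary epithelial cells carry Toll-like receptors as well.

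PolyA RNA was sequenced from isolated mouse cholangiocytes, as the labels name these epithelial cells of the bile ducts. Each of 3 groups had 3 libraries: sham, bile duct ligation (BDL), in which bile backs up into the liver, and BDL plus senkyunolide A, a phthalide found in the herb Ligusticum chuanxiong. The study concerns an interaction of the TRAF6 protein, which RNA levels do not measure, and the comparisons ask how the transcripts of Traf6 and its partners stood after ligation and with the compound. Mouse strain, age, dose, timing and isolation method are not stated in the labels. They also do not tie libraries to individual mice, so the p-values rest on a spread that may be partly technical. Values are FPKM (fragments scaled to transcript length and library size), at an estimated 27.3 to 33.8 M fragments per library.

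The label was checked against markers. The hepatocyte gene Alb read 21400 to 46200 FPKM over the 9 libraries. The biliary keratin genes Krt7 and Krt19 read 0.323 to 0.347 and 0.672 to 0.96 FPKM in sham, and 1.37 to 3.99 and 1.91 to 6.7 FPKM in the ligated groups. The values below therefore belong to libraries with much hepatocyte RNA, and in such bulk libraries more cells of a type and more RNA per cell cannot be told apart. Within the compound's group, library 1 was unlike the rest. It lay at -16.9 on the leading principal component (53.8% of the variance over tested genes), libraries 2 and 3 at 26.7 and 40, the BDL libraries at 14.7 to 40.1 and the sham libraries at -49.6 to -37.5. Log2 differences of named genes that use the compound's group are given with and without it, or only without it where so stated. Library 1 was singled out from these same data, so p-values without it describe the remaining libraries and are no independent support.

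In the sham libraries the intracellular components stood above the receptors. Irak1 had the highest mean, 13.3 ± 3.28 FPKM (SD, n = 3), followed by Tab2 at 12.7 ± 0.893, Irak2 at 9.14 ± 3.28, Map3k7 at 8.33 ± 0.682 and Myd88 at 7.99 ± 0.918. Each of these overlapped the next in its libraries. Traf6 followed at 4.14 ± 0.994 FPKM and Irak4 at 2.83 ± 0.661, which overlapped each other and lay apart from Myd88 above and from the receptor genes below. Cd14 read 1.37 ± 0.224 FPKM, Tlr2 1.22 ± 0.0937 and Tlr4 0.5 ± 0.149. Cd14 came first in BDL at 33.5 ± 8.89 FPKM, above every value of Irak1 (16.4 ± 3.11), and Tlr2 at 4.2 ± 2.51 FPKM stood among Map3k7, Irak4 and Traf6, overlapping each neighbour. Tlr4 stayed lowest in all 3 groups.

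**Figure D1:**
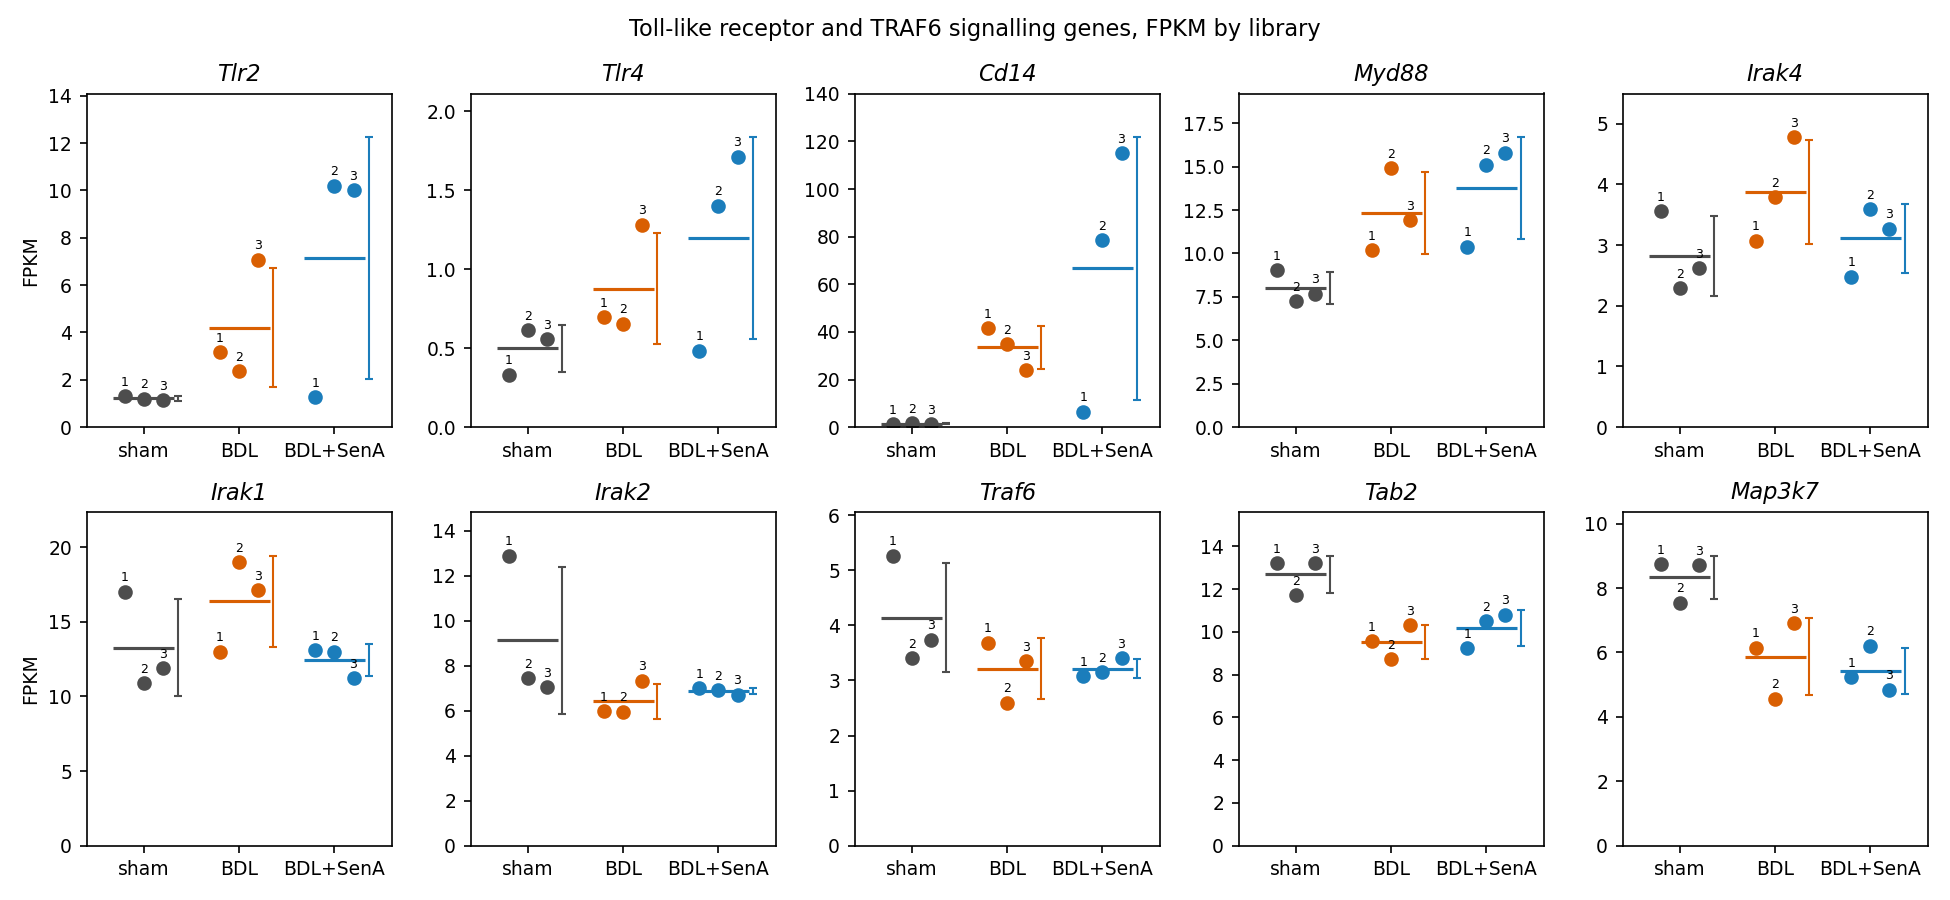
FPKM (y axis, linear from 0) of each of the 10 genes in the 3 sham, 3 BDL and 3 BDL plus senkyunolide A (BDL+SenA) libraries; points are libraries with their replicate number, horizontal lines are group means and vertical bars are 1 SD. Cd14 reads 1.19 to 1.62 in sham and 24 to 41.6 in BDL, and in compound library 1 Tlr2, Tlr4 and Cd14 lie far below libraries 2 and 3.

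Cd14 rose with ligation. This gene on chromosome 18 (36725064 to 36726815, GRCm38) encodes the co-receptor that hands lipopolysaccharide to TLR4. It read 1.31, 1.62 and 1.19 FPKM in the sham libraries and 41.6, 34.9 and 24 FPKM in the BDL libraries. All 3 BDL libraries lay above all 3 sham libraries, and the means differed 24.4-fold. The log2(FPKM + 1) difference was 3.83 ± 0.77 (SE), with a 95% interval from 2.14 to 5.53 (limma, Benjamini-Hochberg adjusted p = 0.0146). The lower value in sham rests on about 56.3 fragments or more per library, as estimated from the FPKM, the depth and an annotated exon length. The call ended without sham 2, sham 3 or BDL 2 (limma adjusted p = 0.0622, 0.066 and 0.0747) and without a filter on low values (0.0639), while the difference stayed between 3.66 and 4.49 over 18 alternatives.

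The receptor genes Tlr2 and Tlr4 were also higher in every BDL library than in any sham library, but neither passed. TLR2 senses bacterial lipoproteins. Tlr2 (chromosome 3, 83836272 to 83841824) read 1.32, 1.2 and 1.13 FPKM in sham and 3.17, 2.37 and 7.07 FPKM in BDL. The groups did not overlap, and BDL 3 was well above the other 2 BDL libraries. The log2 difference was 1.13 with an interval from -0.05 to 2.30 (limma adjusted p = 0.192). It passed without compound library 1, a member of neither group that enters the shared estimate of spread (limma adjusted p = 0.021), and when only sham and BDL were fitted (0.0306). Tlr4, the lipopolysaccharide receptor (chromosome 4, 66827551 to 66846581), read 0.331, 0.612 and 0.557 FPKM in sham and 0.697, 0.654 and 1.28 FPKM in BDL. Its mean over the 9 libraries, 0.859 FPKM, was under the minimum of 1 FPKM set for testing. With a minimum of 0.5 FPKM its log2 difference of 0.31 did not pass (limma adjusted p = 0.41).

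None of the adaptor and kinase genes passed. MYD88 joins the receptors to the IRAK kinases, and Myd88 (chromosome 9, 119335934 to 119340018) read 9.03, 7.26 and 7.69 FPKM in sham and 10.2, 14.9 and 11.9 FPKM in BDL. Every BDL library lay above every sham library. The log2 difference of 0.56 had an interval from 0.07 to 1.05 and did not pass over all genes (limma adjusted p = 0.129). Irak4 (chromosome 15, 94543613 to 94568317), which starts the kinase cascade, read 2.29 to 3.56 FPKM in sham and 3.07 to 4.78 FPKM in BDL, and Irak1 (chromosome X, 74013914 to 74023921), its substrate, 10.9 to 17 and 13 to 19 FPKM. Both overlapped between the groups (log2 differences 0.35 ± 0.21 and 0.29 ± 0.23, limma adjusted p = 0.309 and 0.44). Irak2 (chromosome 6, 113638467 to 113695026), the family member tied to prolonged signalling, read 12.9, 7.45 and 7.05 FPKM in sham and 5.97, 5.96 and 7.33 FPKM in BDL. Sham 1 stood above the other 8 libraries, which lay between 5.96 and 7.45 FPKM (log2 difference -0.41 ± 0.23, limma adjusted p = 0.269). Exons of Myd88 and Irak4 overlap those of Acaa1a and Twf1 on the opposite strand by 223 and 170 bases, and the notes do not say whether counting used strand, so their levels may include reads of those genes, which averaged 59.1 and 17.8 FPKM.

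Traf6 (chromosome 2, 101678420 to 101701668) read 5.27, 3.41 and 3.74 FPKM in sham and 3.69, 2.6 and 3.35 FPKM in BDL. Sham 1 was the highest of the 9 libraries, and the other sham values overlapped the BDL values. The difference of -0.28 on the log2 scale had an interval from -0.72 to 0.16 (limma adjusted p = 0.389). Tab2 (chromosome 10, 7905648 to 7956255), the subunit that binds ubiquitin chains, read 13.2, 11.7 and 13.2 FPKM in sham and 9.56, 8.71 and 10.3 FPKM in BDL. Map3k7 (chromosome 4, 31963492 to 32023470) read 8.74, 7.55 and 8.71 FPKM in sham and 6.15, 4.56 and 6.91 FPKM in BDL. For both genes all BDL libraries lay below all sham libraries. Neither passed at the deposited scaling (log2 differences -0.39 ± 0.18 and -0.45 ± 0.20, limma adjusted p = 0.185 and 0.161). That scaling put the median log2 difference of all tested genes at 0.15. With median-of-ratios scaling this median was -0.02, and Tab2 and Map3k7 passed as lower at -0.58 and -0.64 (limma adjusted p = 0.0494 and 0.0443). With quantile normalization the median was -0.03 and Map3k7 passed at -0.65. Of the other TAK1 complex genes Tab1, a subunit that activates the kinase, read 1.43, 0.532 and 0.871 FPKM in sham and 1.4, 2.49 and 1.91 FPKM in BDL, and Tab3, a relative of Tab2, differed by -0.12. The groups overlapped for Tab1 and it did not pass (log2 difference 0.60 ± 0.21, limma adjusted p = 0.0945).

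Of the 10 genes 9 were tested and 1 passed in BDL against sham, which is 11.1% of those tested, while 11% of all 9884 tested genes passed (8.12% higher, 2.84% lower). The share is that of the background, and the count was 0 to 3 over the alternatives. Of the 9 genes 3 lay higher and 2 lower without overlap between the groups, against 21.5% and 8.96% of all tested genes. Their median log2 difference was 0.29, with 5 positive and 4 negative values, and that of all tested genes was 0.15, with 63.3% positive.

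**Figure D2:**
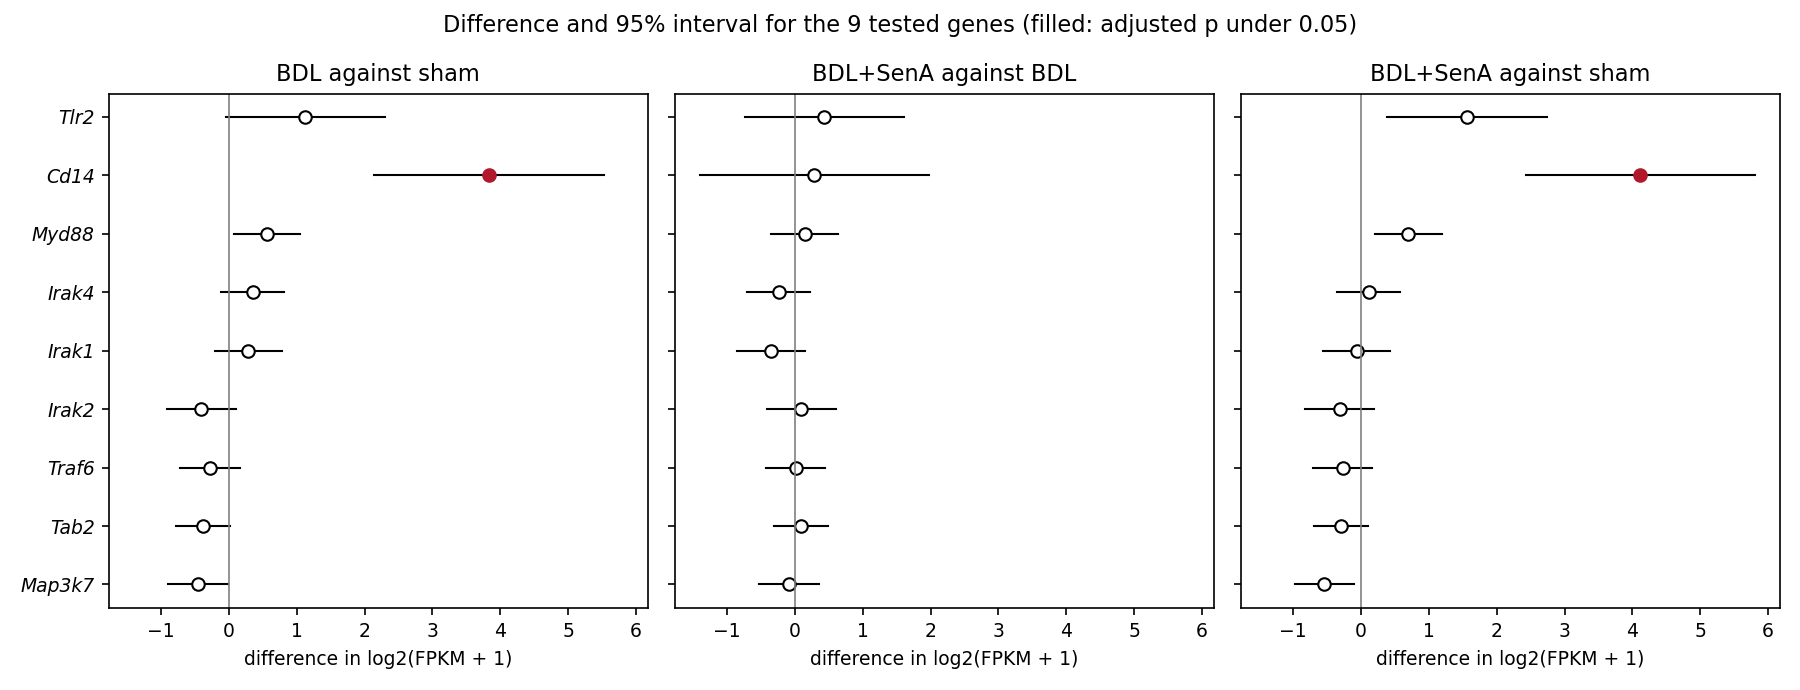
Differences in log2(FPKM + 1) (x axis) with 95% intervals for the 9 tested genes in the 3 comparisons; filled points have a limma adjusted p under 0.05. Cd14 is filled in both comparisons against sham, at 3.83 and 4.12, and the intervals of Traf6 and Irak1, Irak2 and Irak4 include 0 in all 3.

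Promoter sequences are shown for Tlr2 and Map3k7, whose BDL libraries lay clear of sham in opposite directions, and for Traf6, because the pathway ends in NF-kappaB, a factor that binds kappaB sites. Of the 10 genes 8 had an entry in the RefSeq promoter table used here (GRCm38.p6, 250 bases before to 50 after the start annotated there, which for Tlr2 and Map3k7 lies inside the gene bounds given above, while for Traf6 it is the same), and Tlr4 and Cd14 had none. Both strands were searched for the kappaB consensus of NF-kappaB, in which matches may overlap. It was found in 3 of the 8 genes (Tlr2, Map3k7 and Irak1). Myd88 and Tab2, whose BDL libraries also lay clear of sham, higher and lower, held 0 matches. A match was held by 9.55% of all genes with an entry and by 11.9% of tested genes. The Tlr2 window held 3 matches, of which the first pair overlap and begin 173 bases before the start. The Map3k7 window held 1, beginning 92 bases before the start, and the Traf6 window held 0. Capitals mark the matches, and each line is 5′ to 3′ on the gene's strand. The windows are chr3:83841559-83841858 (minus strand) for Tlr2, chr4:31963857-31964156 (plus strand) for Map3k7 and chr2:101678170-101678469 (plus strand) for Traf6. A match describes letters in the window and is not a measured binding site.
Tlr2: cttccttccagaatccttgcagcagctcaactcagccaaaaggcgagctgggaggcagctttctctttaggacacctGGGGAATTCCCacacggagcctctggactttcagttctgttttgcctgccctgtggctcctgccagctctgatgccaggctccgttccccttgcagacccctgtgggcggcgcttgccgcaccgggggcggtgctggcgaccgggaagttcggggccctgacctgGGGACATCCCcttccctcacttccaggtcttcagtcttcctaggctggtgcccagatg
Map3k7: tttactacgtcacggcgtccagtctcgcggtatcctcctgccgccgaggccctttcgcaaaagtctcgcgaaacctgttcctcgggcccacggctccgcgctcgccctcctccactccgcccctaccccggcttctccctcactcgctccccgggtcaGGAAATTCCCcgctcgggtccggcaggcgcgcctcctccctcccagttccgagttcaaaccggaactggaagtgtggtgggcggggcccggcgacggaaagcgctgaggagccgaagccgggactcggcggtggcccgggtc
Traf6: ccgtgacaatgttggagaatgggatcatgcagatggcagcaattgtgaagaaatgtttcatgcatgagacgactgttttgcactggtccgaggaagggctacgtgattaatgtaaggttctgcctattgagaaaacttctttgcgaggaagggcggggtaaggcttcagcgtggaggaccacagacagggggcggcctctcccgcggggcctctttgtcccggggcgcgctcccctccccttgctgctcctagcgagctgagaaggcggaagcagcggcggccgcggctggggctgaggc

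The marker lists whose share of summed FPKM separated BDL from sham were all higher in BDL, and those lower on average overlapped. The 12 macrophage and Kupffer cell markers summed to 324 to 446 FPKM in sham, 877 to 1460 FPKM in BDL and 611 to 2530 FPKM with the compound, and none of them was at 0 in a whole group. In BDL against sham 7 of the 12 rose and 0 fell, with a median log2 difference of 1.496. Of all tested genes 8.12% rose and 2.84% fell, with a median of 0.15 and 63.3% positive. The 10 neutrophil markers summed to 2.96 to 6.43 FPKM in sham, where Retnlg, Camp and Ly6g were at 0 in all 3 libraries, to 39.5 to 66.3 FPKM in BDL and to 18.7 to 105 FPKM with the compound. The 6 monocyte markers summed to 2.82 to 4.97, 15 to 19.8 and 8.27 to 83.3 FPKM. For all 3 lists the share of summed FPKM separated sham from BDL without overlap (exact two-sided permutation test, p = 0.1, the smallest that 3 against 3 libraries allow). Biliary markers separated them too, at 27.8 to 45.7 FPKM in sham and 93.4 to 586 FPKM in BDL, as did the 10 lymphocyte markers, at 2.74 to 9.63 and 12.2 to 19.1 FPKM. Endothelial markers summed to 126 to 139 FPKM in sham and 58.2 to 180 FPKM in BDL, with 8 of 9 tested markers negative and a median of -0.58, and none passed. Stellate cell and fibroblast markers summed to 79.4 to 116 and 23.8 to 126 FPKM, and 2 of 10 fell, Lrat and Reln. Hepatocyte markers held 12.4% of the summed FPKM in sham and 10.6% in BDL, which overlap. With the compound against BDL no marker of these 8 lists passed, all 10 stellate cell and fibroblast markers and all 9 tested endothelial markers had positive values (medians 0.9998 and 0.59), and 7 and 3 of them had an unadjusted p under 0.05. Among all 9884 tested genes 1212 had an unadjusted p under 0.05 in that comparison, and 38.1% had positive values.

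Set against the summed macrophage markers of the same library, Cd14 separated sham from BDL while Tlr2 and Tlr4 overlapped, and differences between the genes were not tested. Cd14 amounted to 0.357% to 0.367% of that sum in sham and 2.03% to 4.75% in BDL. Tlr2 amounted to 0.27% to 0.36% in sham and 0.163% to 0.598% in BDL. Tlr4 amounted to 0.0905% to 0.172% and 0.0449% to 0.109%. Myd88 amounted to 1.63% to 2.47% and 1% to 1.16%, lower in every BDL library. Against the summed neutrophil markers Cd14 amounted to 25.2% to 44% in sham and 36.2% to 105% in BDL, which overlap, and against the monocyte markers to 26.3% to 42.2% and 125% to 233%, which do not. Against the neutrophil markers Tlr2 amounted to 18.7% to 44.5% in sham and 4.42% to 10.7% in BDL, and Tlr4 to 9.51% to 11.9% and 1.22% to 1.94%, both lower in every BDL library. The neutrophil sum came mostly from S100a8 and S100a9, at 14.8 to 27.4 and 16.5 to 34 FPKM in BDL. Its other markers read at most 3.06 FPKM there, and the whole sum in sham was only 2.96 to 6.43 FPKM. The part of these cell types in the receptor values was not tested.

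**Figure D3:**
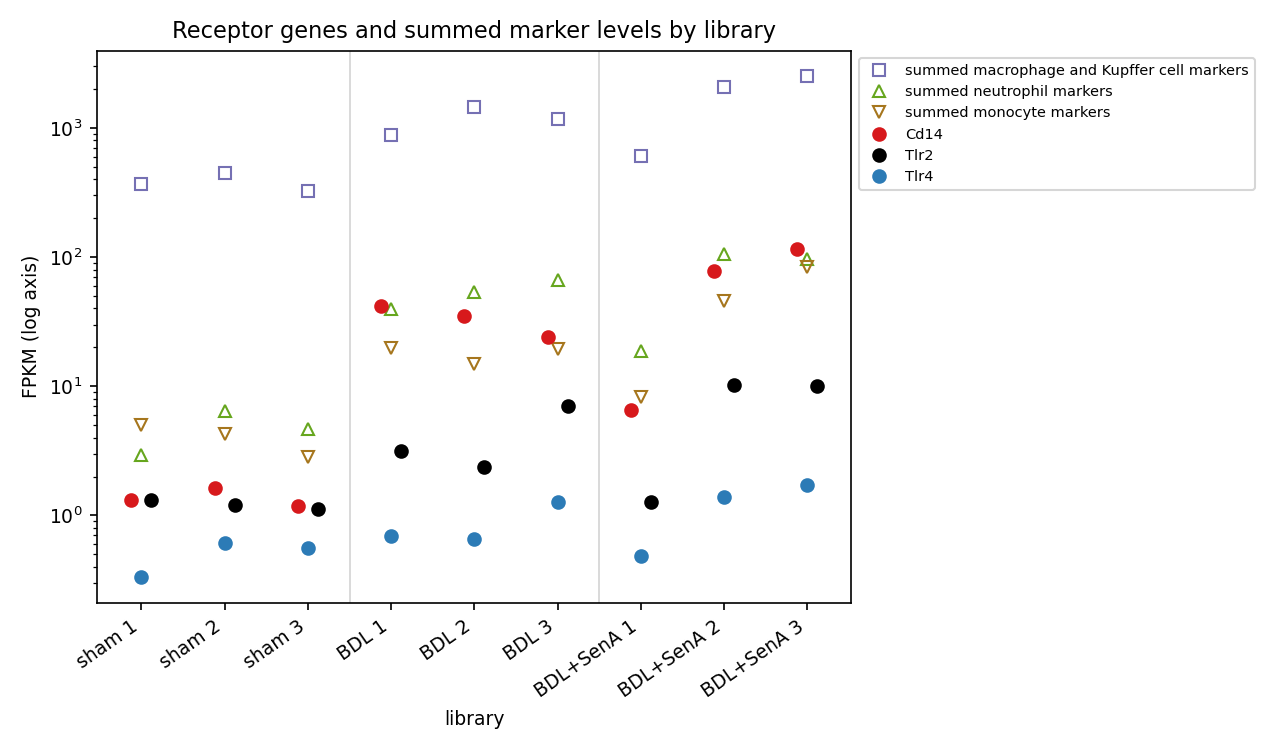
FPKM on a log axis of Cd14, Tlr2 and Tlr4 (filled points) and of the summed macrophage and Kupffer cell, neutrophil and monocyte markers (open symbols) in each of the 9 libraries on the x axis. BDL plus senkyunolide A library 1 is the lowest of the 6 ligated libraries in all 6 series, and Cd14 there reads 6.5 against 24 to 115 in the other ligated libraries.

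The compound against BDL gave 0 calls among the 9 tested genes by limma, and 0 of them had an unadjusted p under 0.05. Of all tested genes 0.0101% passed, and 1212 of the 9884 had an unadjusted p under 0.05. Traf6 read 3.08, 3.15 and 3.41 FPKM with the compound, within the BDL range of 2.6 to 3.69 FPKM. Its group means were 3.21 ± 0.172 and 3.21 ± 0.559 FPKM (SD, n = 3), and the log2 difference of 0.01 had an interval from -0.43 to 0.45 (limma adjusted p = 0.987). The sign of that difference changed with TPM scaling (-0.11), without BDL 2 (-0.10) and without the compound's library 3 (-0.02). Tab2 read 9.23, 10.5 and 10.8 FPKM with the compound and Map3k7 5.24, 6.21 and 4.84 FPKM, both overlapping BDL. Their log2 differences were 0.09 (-0.31 to 0.48) and -0.09 (-0.53 to 0.35), and the sign of the first changed with TPM scaling and that of the second with median-of-ratios scaling, quantile normalization and without BDL 3. Irak1 read 13.1, 13 and 11.2 FPKM against 13 to 19 FPKM in BDL (log2 difference -0.36, interval -0.85 to 0.14). Irak4 and Irak2 differed by -0.24 (-0.71 to 0.23) and 0.09 (-0.41 to 0.60), and Irak2 held within 6.72 to 7.01 FPKM in the 3 compound libraries. Without compound library 1 Traf6 differed by 0.03, Tab2 by 0.15, Map3k7 by -0.07, Irak1 by -0.39, Irak4 by -0.12 and Irak2 by 0.08, and none passed.

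The receptor side was split by library. Cd14 read 6.5, 78.5 and 115 FPKM in compound libraries 1, 2 and 3. Library 1 lay below all 3 BDL libraries and libraries 2 and 3 above all of them, so the log2 difference of 0.29 had an interval from -1.41 to 1.98 (limma adjusted p = 0.869). Without library 1 Cd14 rose by 1.51 ± 0.27 over BDL (limma adjusted p = 0.0403), where 0.536% of all tested genes passed, and without library 2 or library 3 the value turned to -0.19 or -0.46. Library 1 was left out with these values known, and libraries 2 and 3 already lay above BDL. This p-value is therefore no independent support. Of all tested genes 53 passed without library 1, and 62 passed without BDL 3. Tlr2 read 1.26, 10.2 and 10 FPKM, with library 1 in the sham range and libraries 2 and 3 above every BDL library. Its log2 difference was 0.43 (-0.74 to 1.61), and 1.2 without library 1 (limma adjusted p = 0.0892). Tlr4 read 0.484, 1.4 and 1.71 FPKM, in the same order. Myd88 read 10.4, 15.1 and 15.8 FPKM, overlapping BDL (log2 difference 0.14, interval -0.35 to 0.63), and differed by 0.32 without library 1 (limma adjusted p = 0.376). In these libraries the summed macrophage markers read 611, 2080 and 2530 FPKM, the neutrophil markers 18.7, 105 and 96.3 FPKM and the monocyte markers 8.27, 45.9 and 83.3 FPKM, in the same split of library 1 against libraries 2 and 3. Their part in the split was not tested.

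Compared with sham, 1 of the 9 tested genes passed with the compound, Cd14, against 2.17% of all tested genes. This comparison shares its compound libraries or its sham libraries with the others, so it is no separate evidence for them. Cd14 was higher in all 3 compound libraries than in any sham library (log2 difference 4.12 ± 0.77, limma adjusted p = 0.0343). The call ended without any 1 of the 3 sham libraries, without compound library 2 or 3, with quantile normalization, without a filter on low values and with only the 2 groups fitted (adjusted p 0.0521 to 0.159). Without compound library 1 the difference was 5.35 ± 0.27, and Tlr2 and Myd88 passed as well, at 2.33 ± 0.32 and 0.87 ± 0.22 (limma adjusted p = 1.46e-06, 0.000625 and 0.0189), where 18.3% of all tested genes passed. These p-values rest on the same choice of the library to leave out. Myd88 lay above sham in all 3 compound libraries (0.70 ± 0.22, limma adjusted p = 0.0971 with all libraries). Traf6, Irak2, Tab2 and Map3k7 lay below every sham library in all 3 compound libraries (Traf6 in library 3 by less than the rounding of the values given), as did 12.1% of tested genes, and 29.6% of tested genes did not overlap in either direction. Their log2 differences were -0.27 ± 0.20, -0.32 ± 0.23, -0.30 ± 0.18 and -0.54 ± 0.20, and none passed (limma adjusted p = 0.453, 0.449, 0.356 and 0.138). Without compound library 1 they were -0.25, -0.33, -0.23 and -0.52, and none passed.

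Other genes of the pathway were read from 12 lists of 101 genes by role, of which 77 were tested. In BDL against sham 8 rose and 3 fell, 14.3% of those tested against 11% of all tested genes. Positive values were held by 62 of the 77 and by 63.3% of all tested genes. The median log2 difference was 0.39 against 0.15. Without a filter on low values 5 passed, and without sham 2, sham 3 or BDL 2 the count fell to 0, 0 and 0. Without BDL 1 it was 5. Irak3 and Nfkb2, among the 8 that rose, met the minimum of 1 FPKM only through the ligated groups.

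Among receptors and their partners, Lbp, the plasma protein that carries lipopolysaccharide to CD14, read 33, 22.8 and 26 FPKM in sham and rose to 118, 152 and 49.6 FPKM in BDL (log2 difference 1.8 ± 0.42). Cd36, a scavenger receptor that works with TLR2, rose from 8.12, 14.7 and 10.9 FPKM to 63.3, 38.8 and 41.7 FPKM (2.0 ± 0.43). All 8 co-receptor and chaperone genes had positive values, as did 63.3% of all tested genes. The lipopolysaccharide-binding subunit of the TLR4 complex, Ly96, read 5.21 to 5.86 FPKM in sham and 4.91 to 13 FPKM in BDL and did not pass. Tlr5, the flagellin receptor, fell from 2.7, 1.49 and 1.52 FPKM to 0.518, 0.382 and 0.698 FPKM (-0.90 ± 0.24). It was the one of 4 tested Toll-like receptor genes that passed. Its mean over the 9 libraries, 1.01 FPKM, met the minimum of 1 FPKM only through sham. The group means were 1.9 FPKM in sham, 0.533 FPKM in BDL and 0.596 FPKM with the compound. Of the others Tlr13, a sensor of bacterial ribosomal RNA, read 0.21 to 0.474 FPKM in sham and 1.99 to 2.63 FPKM in BDL (limma adjusted p = 0.0692), and Tlr12 differed by 0.01. Of the 10 listed Toll-like receptor genes 6 lay under the filter. Among these Tlr1, Tlr6, Tlr7, Tlr8 and Tlr9 read higher in every BDL library than in any sham library, and Tlr11 overlapped. Tlr1, Tlr7 and Tlr8 averaged 0.271, 0.4 and 0.474 FPKM in sham and 0.973, 1.17 and 1.11 FPKM in BDL. Of all tested genes 21.5% lay higher in BDL without overlap. The accessory chain of the IL-1 receptor, Il1rap, fell from 15.5, 22.8 and 22 FPKM to 5.71, 3.48 and 9.8 FPKM (-1.60 ± 0.34), while the receptor Il1r1 read 0.54 ± 0.52 higher and did not pass. Of the other receptors that recruit TRAF6, Il17rc and Tgfbr1 differed by 0.92 and 0.13 without passing.

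Further down the pathway, Pik3ap1, an adaptor that links Toll-like receptors to PI3 kinase, rose from 15.4, 7.85 and 9.31 FPKM to 28.1, 31.6 and 38.3 FPKM (1.55 ± 0.31). The adaptor Tirap did not pass (-0.31 ± 0.25). Irak3, an inhibitory member of the IRAK family, rose from 0.369, 0.299 and 0.128 FPKM to 2.99, 3.02 and 1.02 FPKM (1.34 ± 0.30), and exons of it overlap those of the abundant Tmbim4 on the opposite strand by 122 bases. Tifa, a partner that helps TRAF6 to form oligomers, read 3.68 to 5.5 FPKM in sham and 12.9 to 18.1 FPKM in BDL without passing (1.53 ± 0.46, limma adjusted p = 0.057). Chuk, the IKK alpha kinase, fell from 30.5, 31 and 33 FPKM to 16.6, 13.3 and 19.8 FPKM (-0.90 ± 0.22), the 1 of 10 tested IKK and MAP kinase genes that passed. The ubiquitin-conjugating enzymes that work with TRAF6, Ube2n and Ube2v1, read 0.39 and 0.63 higher without passing. Tnip1, which restrains NF-kappaB with the enzyme A20, rose by 1.08 ± 0.20, and Tnfaip3, which encodes A20, read 0.238 to 0.549 FPKM in sham and 2.42 to 2.79 FPKM in BDL (limma adjusted p = 0.0568). The subunit gene Nfkb2 rose by 1.0 ± 0.20, while Rela and Nfkb1 did not pass (0.80 and 0.40). Irak3 and Nfkb2 averaged 0.265 and 0.427 FPKM in sham, and 1.27 and 1.2 FPKM over the 9 libraries. They met the minimum of 1 FPKM only through the ligated groups, where they were high.

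Among 9 tested induced targets Cxcl1, a neutrophil chemokine, rose from 4.27, 3.23 and 0.767 FPKM to 27.8, 26.2 and 22.7 FPKM (2.96 ± 0.78), and Icam1, an adhesion molecule, from 4.16, 2.54 and 1.56 FPKM to 10.3, 15.9 and 11.1 FPKM (1.88 ± 0.36). All 9 had positive values, with a median of 0.78, while 63.3% of all tested genes were positive. Saa3, an acute phase gene, read 6.77 to 13.6 FPKM in sham and 5.18 to 34.6 FPKM in BDL. Transcripts of Il6 read at most 0.0275 FPKM in sham and BDL. The limma adjusted p of the 11 genes that passed was 0.0117 to 0.0353.

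**Figure D4:**
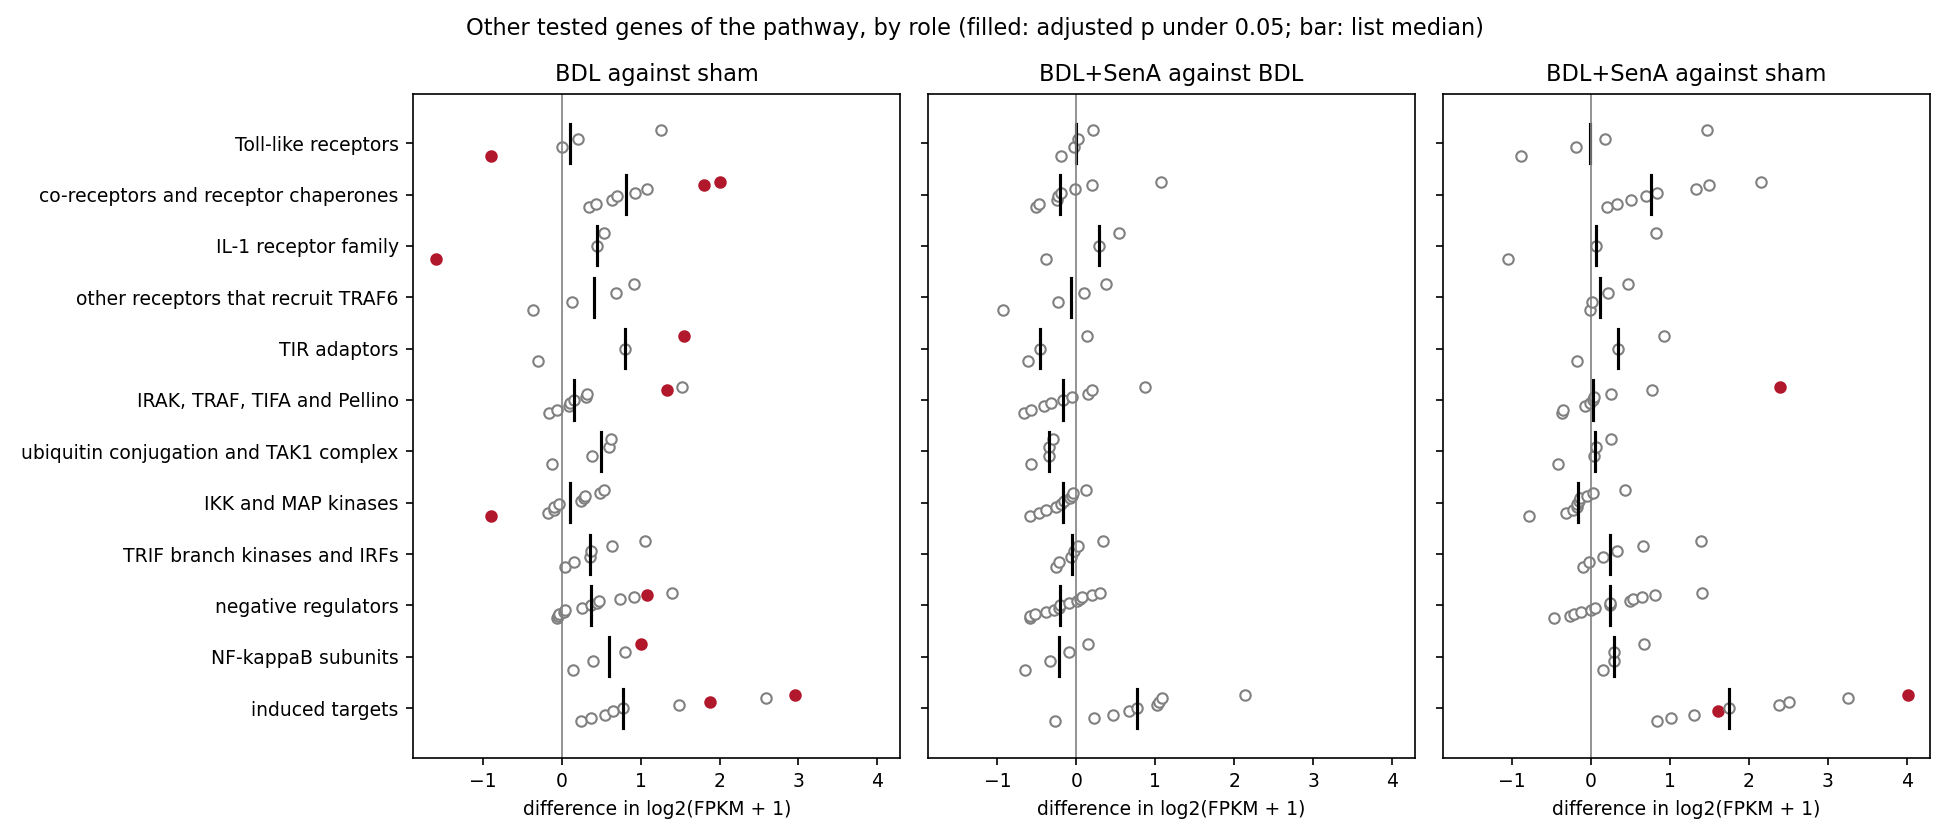
Differences in log2(FPKM + 1) (x axis) of the 77 other tested pathway genes, grouped by role (y axis), in the 3 comparisons; points are genes, filled where the limma adjusted p was under 0.05, and black bars are list medians. In the middle panel no point is filled, and the induced targets have a median of 0.76 while 10 of the 12 lists have medians below 0.

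With the compound against BDL 0 of the 77 genes passed in limma, and 5 had an unadjusted p under 0.05, against 1212 of all 9884 tested genes. The 4 with the smallest p were Tnip1, Il17rc, Rnf216, a ubiquitin ligase, and Tax1bp1, an A20 adaptor. They differed by -0.59 ± 0.20, -0.93 ± 0.33, -0.59 ± 0.23 and -0.52 ± 0.23 (limma adjusted p = 0.407 for each), and by -0.46, -1.16, -0.60 and -0.55 without compound library 1 (0.1 to 0.212). The 68 genes other than induced targets had a median of -0.19, with 47 negative values, and that of all tested genes was -0.12. The 9 induced targets had a median of 0.76, with 8 positive values, while 38.1% of all tested genes were positive. Cxcl1 read 9.85, 138 and 109 FPKM in compound libraries 1, 2 and 3, Ccl2, a monocyte chemokine, 1.37, 29.5 and 39 FPKM, and Cxcl2, another neutrophil chemokine, 0, 5.01 and 5.65 FPKM. Libraries 2 and 3 lay above every BDL library for these genes and library 1 below. Without library 1, 7 genes passed, all higher than in BDL: Cxcl2 by 1.98 ± 0.16, Il1rn, the IL-1 receptor antagonist, by 2.02 ± 0.32, Tifa by 1.55 ± 0.24, Ly86, a subunit of the CD180 receptor, by 1.90 ± 0.29, Ccl2 by 1.96 ± 0.32, Cxcl1 by 2.22 ± 0.39 and Saa3 by 3.44 ± 0.64 (limma adjusted p 0.000994 to 0.0441). In that fit 0.364% of all tested genes were higher. It leaves 2 compound libraries, and library 1 was singled out from these same data. Cxcl2 averaged 0.0207 FPKM in sham and 0.606 FPKM in BDL. It met the minimum of 1 FPKM only through compound libraries 2 and 3, where it was high, so its call is no separate support. With all libraries Tifa, Cxcl1 and Saa3 differed from BDL by 0.86, 1.05 and 2.14 and did not pass (limma adjusted p = 0.436, 0.531 and 0.407). The differences of Cxcl2, Il1rn, Ly86 and Ccl2 from BDL are given only without library 1.

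Against sham 3 of the 77 genes passed with the compound, all higher, against 1.76% of all tested genes. Tifa rose from 4.6, 5.5 and 3.68 FPKM to 10.3, 53.1 and 39.4 FPKM (2.39 ± 0.46), Cxcl1 by 4.01 ± 0.78 and Icam1 by 1.61 ± 0.36 (limma adjusted p = 0.036, 0.036 and 0.0476). The next, Ccl2, did not pass (3.25 ± 0.82, limma adjusted p = 0.0577). Without compound library 1 the differences of Tifa, Cxcl1, Icam1 and Ccl2 were 3.07, 5.18, 2.01 and 4.55, and all 4 passed. The count was 28 without compound library 1, 25 higher and 3 lower. The 3 lower genes there were Chuk, Tlr5 and Il1rap, at -0.90 ± 0.22, -1.11 ± 0.21 and -1.31 ± 0.34. In that fit 12.3% of all tested genes were higher and 5.99% lower. With all libraries Chuk and Il1rap differed from sham by -0.78 and -1.05 and did not pass (limma adjusted p = 0.0678 and 0.0965). The difference of Tlr5 from sham is given only without library 1, and it did not pass with all libraries. The count fell to 0 without any 1 sham library, without compound library 2 or 3, with quantile normalization, without a filter and with only the 2 groups fitted.

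Irf3 and Irf7, the interferon regulatory factors of the TRIF and endosomal branches, averaged 36.2 and 23.7 FPKM over the 9 libraries. They differed by 0.37 and 0.64 in BDL against sham and by -0.22 and 0.02 with the compound against BDL. Map2k3, a kinase above p38, and Traf4, a relative of Traf6, averaged 23.3 and 9.19 FPKM, and differed by 0.53 and 0.31 in BDL and by -0.59 and -0.66 with the compound. Nfkbia, the inhibitor that holds NF-kappaB in the cytoplasm, averaged 21.1 FPKM and differed by 0.45 and 0.20. None of these 5 passed in either comparison. Without compound library 1 the differences from BDL were -0.38 for Irf3, 0.15 for Irf7, -0.86 for Map2k3, -0.99 for Traf4 and 0.43 for Nfkbia, and none passed.

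The profile of Traf6 over the 9 libraries was most like those of Trub1, Zbtb43, Zfp410 and Galnt4 (Pearson r of log2(FPKM + 1) 0.985, 0.973, 0.957 and 0.954), and 21 of 9883 other tested genes had an r above 0.9. That of Cd14 was most like Orm3, Tm4sf4 and Rbm3-ps (0.994 to 0.995), with 417 genes above 0.9. That of Tlr2 was most like Ppt1, Serpinb9, Sptlc2 and Plek (0.988 to 0.997), with 386 above 0.9, and that of Tlr4 most like Msr1, Dtwd1, Sdcbp and Snx7 (0.981 to 0.993), with 281 above 0.9. These values describe profiles that share the same 3 groups and the same libraries.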

How the data were processed

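PolyA RNA of 9 mouse libraries labelled cholangiocyte was measured, 3 per group, with groups and columns matched through the sample titles. The authors deposited a single table of FPKM for all genes. The submitters' processing notes list HISAT2 2.0.5 and featureCounts 1.5.0-p3 beside CASAVA 1.8, DESeq2 1.20.0 and fastp, with GRCm38 as build. Order, settings, annotation and use of strand are not stated there.

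The 9884 genes averaging 1 FPKM or more were compared on log2(FPKM + 1) by limma 3.58.1 in R 4.3.3 (all 3 groups in one model, variance trend, two-sided, Benjamini-Hochberg adjusted p under 0.05). A difference on this scale understates the change of low genes. The procedure was tested on simulated data. Alternatives were another pseudocount, filter, scaling, variance model or set of groups, the replicate number as a block, and each library left out. Depth was estimated from the most common step of low FPKM values in genes with 1 annotated transcript (GENCODE M21), and fragments per gene are approximate. Named genes were the 10 members, pathway genes that passed or had the 4 smallest p, the 2 most abundant of each list, and the 4 nearest profiles of Traf6, Tlr2, Tlr4 and Cd14, of which 1 is not reported here. Ly96, Il6, Tnfaip3, the Toll-like receptor genes under the filter, and Cxcl2, Il1rn and Ly86 in the fit without compound library 1, were added after their values were seen. The members and lists were chosen with earlier results of these data known.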

Additional observations from a re-analysis of the deposited data

How the results depend on the processing

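Over 18 alternatives, 492 values of the 10 genes were recomputed. Of these 460 kept their direction and their side of the threshold, 20 changed side and 12 changed sign. Direction could not change under another filter, variance model, block or set of groups, or without a library outside the comparison. These leave the log2 difference as it was. Tlr4, untested in the main fit, was counted as kept where its difference moved by less than its pooled SD. Counts of genes that passed, given as all tested genes, the 10 genes and other pathway genes, moved as follows. In BDL against sham they ranged over 153 to 1722, 0 to 2 and 0 to 21 with 1 library left out. They were 520, 0 and 5 without a filter on low values, against 1084, 1 and 11. The 10 genes gave 3 with median-of-ratios scaling, 2 with quantile normalization and 2 with only the 2 groups fitted, where other pathway genes gave 20. With the compound against BDL they ranged over 0 to 62, 0 to 1 and 0 to 7 with 1 library left out, and all tested genes gave 0 under the replicate block and 0 with only the 2 groups fitted, against 1. With the compound against sham they ranged over 0 to 1806, 0 to 3 and 0 to 28 with 1 library left out. They were 3, 0 and 0 without a filter, 42, 0 and 0 with quantile normalization and 60, 0 and 0 with only the 2 groups fitted, against 214, 1 and 3. All tested genes gave 418 with log2(FPKM + 0.1), 137 with median-of-ratios scaling and 374 under the replicate block, and other pathway genes gave 6 with log2(FPKM + 0.1) and 7 under the replicate block. The causes were not tested.

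The labels do not say whether replicate numbers pair the libraries, and the values do not settle it. Deviations from group means correlated at -0.385 to 0.25 over 9 same-numbered pairs, 3 of them above 0.1. The replicate block changed no call among the 10 genes.

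Values that changed sign with the compound against BDL were Irak2 (-0.0368), Traf6 (-0.11) and Tab2 (-0.0465) with TPM scaling and Map3k7 with median-of-ratios scaling (0.0192) and quantile normalization (0.0584). With 1 library left out Cd14 ranged from -0.46 to 1.51 (-0.19 and -0.46 without compound libraries 2 and 3), Traf6 from -0.10 to 0.0912 (-0.10 without BDL 2 and -0.0238 without compound library 3) and Map3k7 from -0.23 to 0.0239 (0.0239 without BDL 3). Against sham Irak1 ranged from -0.19 to 0.11, with 0.11 without sham 1 and 0.00181 without compound library 3. The difference in the share of summed FPKM with the compound against BDL ranged from -1.14 to 0.826 percentage points for hepatocyte markers, from -0.0213 to 0.0296 for biliary markers and from -0.000348 to 0.00782 for neutrophil markers. With 3 libraries a group, leaving out 1 leaves 2. Tlr4, which lay under the filter, rests on about 56.8 to 309 fragments per library.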
